A study of Rattus norvegicus with 196 samples.

Results

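Ribosomal protein transcripts were followed through 25 regions of the rat brain, in rats given fluoxetine (FT), a selective serotonin reuptake inhibitor, and in control rats (Sham). The set held 47 of the 29188 transcripts counted. They were picked by gene name, 24 as proteins of the cytosolic ribosome (names in Rpl, Rplp or Rps, without the Rps6k kinases) and 23 as proteins of the mitochondrial ribosome (Mrpl or Mrps). The names came from the study's list of transcripts called between FT and Sham in several regions, of which 1989 entries were used here and the rest were not. The set is therefore neither a complete ribosome nor a random draw from one. Values of FT against Sham chose the members and are given below as a description only. Levels in different brain areas were not part of the choice, although the same libraries entered it.

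All rats were naïve male Long-Evans animals, 2 months old when they were assigned to a group. FT and Sham thus differed in drug exposure and neither is a disease model. FT rats took fluoxetine at 18 mg/kg per day in their drinking water for 6 weeks, and Sham rats drank water alone. Tissue of both groups was taken after those 6 weeks. There were 98 FT and 98 Sham libraries, each from tissue punches pooled over several animals, with the replicate numbers 1, 3, 4 and 5. The medial preoptic area (mPoA) had FT libraries, and the arcuate nucleus (Arc) Sham libraries, only for replicates 4 and 5. Counts on transcripts ranged from 4586 to 50893913 per library. The library with 4586 counts (Sham, nucleus of the solitary tract, replicate 3) was left out, as were the replicate 1 libraries of the cingulate cortex (CGC), a region from which the study removed outliers. The replicates it removed are not named in the sources used here, so leaving out replicate 1 was a choice made here. The Sham library of the infralimbic cortex (ILC), replicate 3, was kept with 543403 counts, of which only 1359 fell on cytosolic and 179 on mitochondrial members. The Sham ILC library of replicate 1 also stood apart, with 82.85% of its counts on its 50 most abundant transcripts, where the median of Sham replicate 1 was 37.47%, and 0.2305% on cytosolic members, the lowest share of any library used. Both were kept. Counts of members called between areas in Sham and in FT against Sham are also given without them. Values by replicate number are given only with them.

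Ribosomes are built from ribosomal RNA and many proteins in a small and a large subunit. The cytosolic ribosome translates messenger RNAs of the nuclear genome, while the mitochondrial ribosome, whose proteins are also encoded in the nucleus, makes subunits of the respiratory chain. Messages for cytosolic ribosomal proteins are known for a run of pyrimidines at their 5′ end, which ties their translation to mTOR signalling, and neurons carry many of these messages into their processes. Cytosolic ribosomal protein genes also have many processed copies in mammalian genomes, so the counts of these members are uncertain where reads match several copies. Rps15al4, Rps10l1, Rpl7l1 and Rpl32-ps1 are themselves copies or relatives of ribosomal protein genes, and Rpl32 and Rpl32-ps1 may share reads.

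The pyrimidine run was looked for at the gene start, because it is the best known sequence mark of the cytosolic class. RefSeq gene starts of the GRCr8 assembly were matched by symbol for 20 cytosolic and 19 mitochondrial members, and 19 of each class had a single entry. A run of at least 5 pyrimidines that begins with C within 5 bases of the start was present in 11 of 19 cytosolic members (57.9%), in 2 of 19 mitochondrial members (10.5%) and in 17.0% of all 33469 starts. The ETS core CCGGAAG, on either strand of the 300 bases around the start, was found in 42.1% of cytosolic members, 31.6% of mitochondrial members and 8.75% of all starts. The NRF1 core GCGCANGC was found in 15.8%, 10.5% and 8.98%, in the same order. A match describes letters and is not a bound site.

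The windows below hold 30 bases, 15 on each side of the start, for members on which the comparisons turn, with the pyrimidine run in capitals where one was found.
Rpl37: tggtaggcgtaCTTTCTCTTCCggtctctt
Rplp1: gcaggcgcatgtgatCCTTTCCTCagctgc
Rps18: cacgtcacttccgCTCTCTCTTCCacagga
Rpl18: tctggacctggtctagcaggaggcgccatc
Rpl36: ctgtccggccgccatcggaaagctgcaggt
Mrpl17: gcatgcgtcctctggaaagtgactccgccc
Mrpl51: gcgtcgcgcccgcagagtccgcaactccga
Mrps7: tccgaggtcctgatagcggccaagatggct
Mrpl52: accggagccacgcccaCTTCCggtttcttt
In GRCr8 the Rpl37 window lies at chr2:55942930-55942959 (plus strand), Rplp1 at chr8:71290858-71290887 (minus), Rps18 at chr20:4933730-4933759 (plus), Rpl18 at chr1:105325255-105325284 (plus) and Rpl36 at chr9:1533765-1533794 (plus). Mrpl17 lies at chr1:169575685-169575714 (minus), Mrpl51 at chr4:159677973-159678002 (plus), Mrps7 at chr10:101342627-101342656 (plus) and Mrpl52 at chr15:31852921-31852950 (plus). The counts were made on the older rn5 assembly, so these positions serve only to place the printed bases. Rpl18 and Rpl36 had no run at the annotated start, and among the mitochondrial members only Mrpl52 and Mrps11 had one, each 5 bases long.

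The level of both classes differed between replicate numbers. Expression was given as CPM (counts scaled to a fixed library total) after TMM normalisation and summed over the members of a class in each library. In Sham, the median cytosolic sum was 9120 CPM in replicate 1, 16610 in replicate 3, 5001 in replicate 4 and 4232 in replicate 5. The median mitochondrial sum was 2227, 1804, 1393 and 1263 CPM in the same order. The cytosolic sum was thus highest in replicate 3, where the mitochondrial sum was not. In FT, the cytosolic medians were 9087, 19300, 3423 and 3679 CPM and the mitochondrial medians 2194, 1901, 2471 and 2856 CPM. Cytosolic reads outnumbered mitochondrial reads by a median factor of 4.18, 8.72, 3.67 and 3.21 in Sham and of 4.09, 9.76, 1.22 and 1.23 in FT. In replicate 3 the 50 most abundant transcripts took a median of 68.56% of all counts in Sham and 67.66% in FT, against 28.2% to 37.47% in the other replicates. Their part in the ribosomal levels was not tested.

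**Figure D1:**
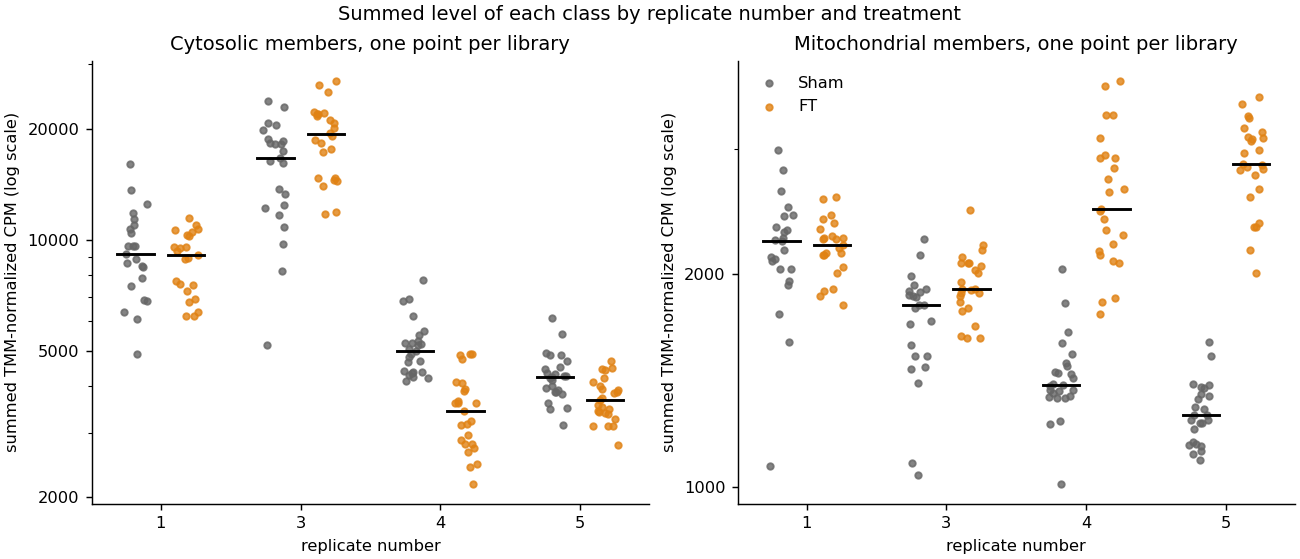
Summed TMM-normalised CPM (log axis) of the 24 cytosolic members (left) and the 23 mitochondrial members (right) in each library, by replicate number, with Sham in grey, FT in orange and black bars at the medians. Cytosolic sums are highest in replicate 3, and in replicate 5 the lowest FT mitochondrial sum, 2006 CPM, lies above the highest Sham sum, 1601 CPM.

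Single members differed widely in how far their level moved between replicate numbers. Rplp1, a protein of the ribosomal stalk that contacts elongation factors, had a median of 189 CPM in Sham libraries of replicate 1, 1361 in replicate 3, 11.4 in replicate 4 and 82.4 in replicate 5. Rpl36, of the large subunit, stood at 153, 745, 10.1 and 53.7 CPM in the same order. Both were thus high in replicate 3 and low in replicate 4. Rps19, of the small subunit, was steadier at 508, 467, 304 and 367 CPM. Among mitochondrial members Mrpl51 ran the other way, with 66.7 and 22.7 CPM in replicates 1 and 3 and 260 and 156 CPM in replicates 4 and 5, whereas Mrpl17 stayed between 98.3 and 169 CPM. Rpl41, Rps14 and Rpl37 carried 14.1%, 11.6% and 8.03% of cytosolic CPM, and Mrpl51, Mrps14 and Mrpl27 carried 14.8%, 9.88% and 7.44% of mitochondrial CPM. These are shares of reads, which depend on transcript length.

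Brain areas were compared within Sham to ask whether the ribosome classes differ from place to place without the drug. An edgeR quasi-likelihood fit over the Sham libraries, with replicate number as a block, set brainstem (ventral tegmental area, periaqueductal gray, raphe, locus coeruleus and solitary tract nucleus), hypothalamus (mPoA, Arc, lateral and ventromedial hypothalamus), dentate gyrus and nucleus accumbens each against cortex (prelimbic, infralimbic, cingulate and insular). A transcript counted as called when its log2 fold-change (log2FC) was 0.322 or more in size, up or down, and its adjusted p did not exceed 0.1. Each replicate number is a pool of animals from which all regions were taken, so these area libraries come from 4 pools, the fit counts regions of 1 pool as separate samples, and its p-values are too small. The counts of the regions of an area were therefore also summed per replicate number and fitted again, with 1 sample per area and pool, an alternative added after the data were seen.

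Most regional markers followed the labels. DRD2 and Adora2a were higher in the accumbens (log2FC 4.50 and 5.16), Neurod1 in the dentate gyrus (2.31) and Hcrt in the hypothalamus (7.24). The libraries labelled PVN (paraventricular nucleus) went against theirs, with mean Sham levels of 1.87 CPM for Avp and 5.97 CPM for Oxt, against 198 and 556 CPM in the lateral hypothalamus (LH), and of 406 CPM for the thalamic marker Tcf7l2, against 772 CPM in the mediodorsal thalamus. They were kept out of the hypothalamus group and are called by their label where all 25 regions are described. The locus coeruleus (LC) libraries held Th, an enzyme of noradrenaline synthesis, at a mean of 160 CPM in Sham, but also the granule cell marker Neurod1 at 57.6 CPM, close to the 54.8 CPM of dorsal dentate gyrus, and the choroid plexus marker Ttr at 28300 CPM against 43.4 CPM in the ventral tegmental area. They were kept in the brainstem group, and the members in the Sham brainstem fit are also given without them. All other brainstem values include LC.

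The brainstem held most of the calls in Sham. There, 11 of 24 cytosolic members were higher than in cortex and 1 was lower, where 29.7% of all transcripts tested were higher and 26.3% lower. Of 23 mitochondrial members, 10 were higher and 1 was lower. Median log2FC was 0.26 for cytosolic and 0.22 for mitochondrial members, beside 0.03 over all transcripts. Without LC, 10 cytosolic members were higher and 1 lower and 10 mitochondrial members were higher and 1 lower, with medians of 0.26 and 0.23 and a background of 28.7% and 25.2%. In the fit with 1 sample per area and pool, 7 cytosolic members were higher and 1 lower and 8 mitochondrial members were higher and 2 lower (Mrps14 and Mrpl49, named after their values were seen), with a background of 24.1% and 22.6%. Without the Sham ILC libraries of replicates 1 and 3, 11 cytosolic members were higher and 2 lower and 9 mitochondrial members were higher and 4 lower (background 30.3% and 27.4%), and the medians fell to 0.14 and 0.13. The higher cytosolic members came from both subunits, 5 of 12 names from the large and 6 of 12 from the small one. The higher mitochondrial members were 7 of 14 large-subunit and 3 of 9 small-subunit names.

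Rpl36 had the largest log2FC in brainstem among the members, although its levels overlapped those of cortex. It ranged from 20.4 to 1240 CPM in 19 brainstem libraries (median 97.2) and from 4.86 to 1120 CPM in 15 cortical libraries (median 26.3). The fitted log2FC came to 1.98 ± 0.32 (standard error; adjusted p = 1.56e-07, edgeR), and brainstem exceeded cortex within each replicate number, by 1.07 to 2.83 on the log2 CPM scale. Without the block the log2FC was 1.01 and the call was lost (adjusted p = 0.365 from edgeR). It was 1.94 without LC and 1.65 with 1 sample per area and pool (adjusted p = 4.36e-07 and 0.0101 from edgeR). Rplp1 followed at 1.67 (standard error 0.33, adjusted p = 8.97e-06 from edgeR). Its within-replicate differences were 0.45, 0.50, 2.44 and 0.59 in replicates 1, 3, 4 and 5, and its log2FC was 0.82 without replicate 4 and, without the block, 0.30 (adjusted p = 0.835 from edgeR). The member lower in brainstem was Rpl7l1, a relative of Rpl7 (log2FC -0.80, standard error 0.22, adjusted p = 0.0012 from edgeR). Without LC, Rplp1 was again called higher (adjusted p = 1.29e-05 from edgeR) and Rpl7l1 lower (log2FC -0.65, adjusted p = 0.0155), and with 1 sample per area and pool their log2FC was 1.57 and -1.08 (adjusted p = 0.0109 and 0.0245).

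Large-subunit proteins led the mitochondrial class in brainstem. Mrpl34 reached 1.02 ± 0.27 (log2FC and standard error, edgeR adjusted p = 0.000714), which was 0.44 without the block (adjusted p = 0.621). Mrpl52 reached 0.95 ± 0.13 (log2FC and standard error, edgeR adjusted p = 4.96e-10). It ranged from 19.7 to 106 CPM in brainstem (median 40.4) and from 13 to 60.8 CPM in cortex (median 23.5), so that the areas overlapped, and it was higher in brainstem within every replicate number, by 0.54 to 1.15. Mrpl51 was the member called lower, at -0.71 (standard error 0.22, adjusted p = 0.00507 from edgeR), with differences of -0.74, 0.01, -1.19 and -0.60 in replicates 1, 3, 4 and 5. Its call was lost without replicate 4 (log2FC -0.51, adjusted p = 0.122 from edgeR) and without the block (-0.93, adjusted p = 0.148). Without LC, Mrpl34, Mrpl52 and Mrpl51 stood at 1.00, 0.92 and -0.65 (adjusted p = 0.00124, 5.71e-09 and 0.0157 from edgeR). Fitted with 1 sample per area and pool, Mrpl34 and Mrpl52 were called at 1.12 and 0.96 (adjusted p = 0.0137 and 0.000523 from edgeR), and Mrpl51 was not (-0.70, adjusted p = 0.133).

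**Figure D2:**
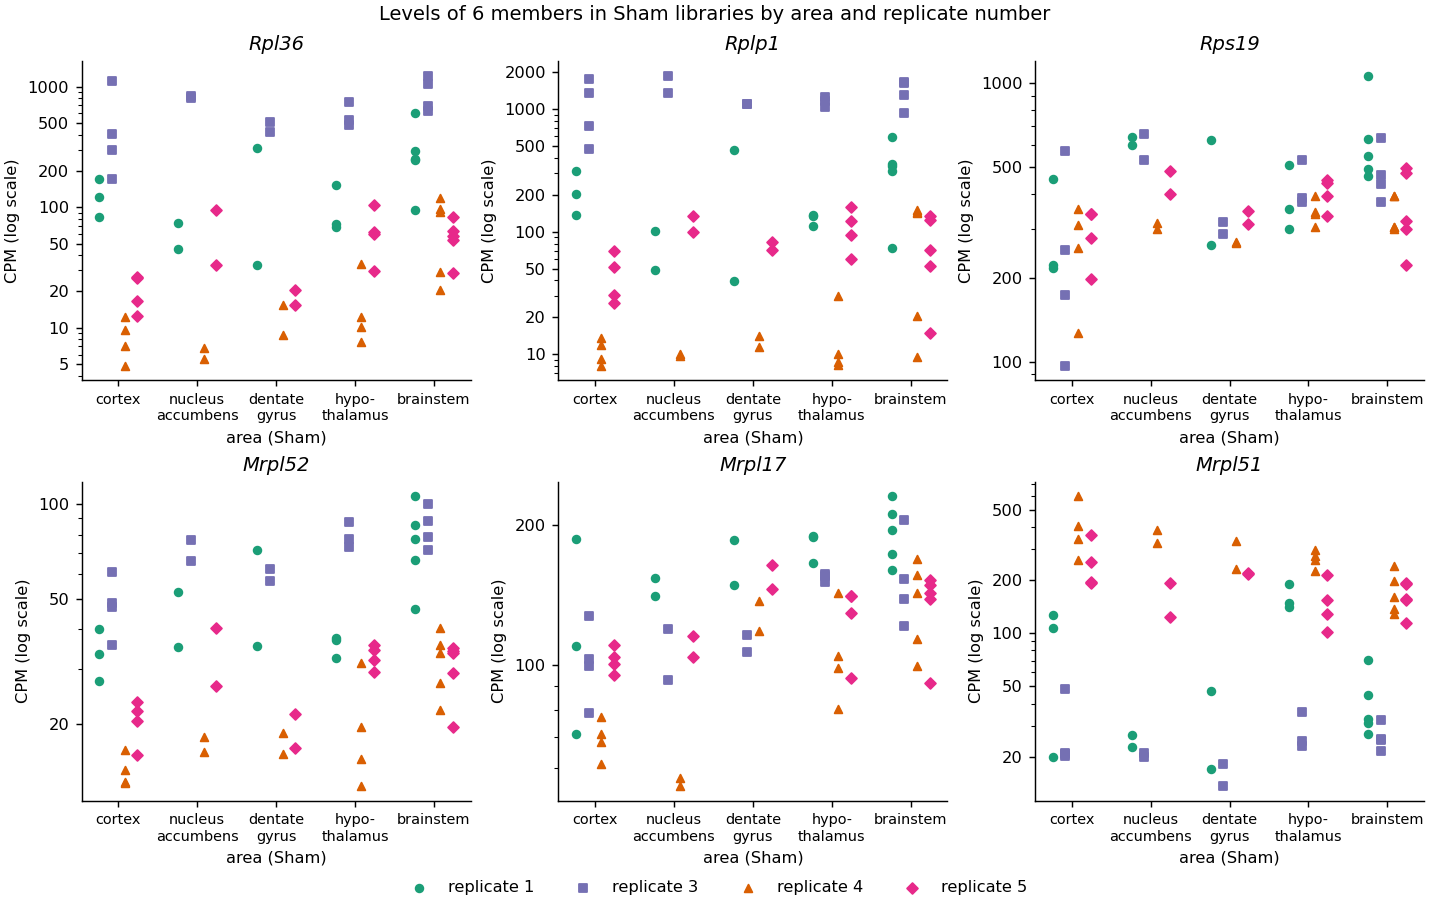
CPM (log axis) of 6 members in Sham libraries of 5 brain areas, with 1 point per library and colour and symbol for the replicate number. Rpl36 and Rplp1 spread mainly by replicate number, and Mrpl52 and Mrpl17 have brainstem medians of 40.4 and 152 CPM against 23.5 and 99.4 CPM in cortex.

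Fewer members were called in hypothalamus. There, 6 cytosolic members were higher and none lower, beside a background of 23.5% higher and 20.3% lower, and 3 mitochondrial members were higher and 3 lower. With the Sham ILC libraries of replicates 1 and 3 left out, 5 cytosolic members were higher and 1 lower (background 23.1% and 19.9%). Of the mitochondrial members, 3 were then higher and 2 lower. The cytosolic median fell from 0.11 to 0.02 and the mitochondrial median from 0.09 to -0.0049. With 1 sample per area and pool, no cytosolic and 2 mitochondrial members (Mrpl52 and Mrps35) were higher and none of either class was lower, beside 15.7% and 15.3% of all transcripts. The leading cytosolic members were Rpl36 (log2FC 0.86, standard error 0.33, adjusted p = 0.0294 from edgeR) and Rplp0, the base of the stalk (0.71, standard error 0.27, adjusted p = 0.0286). Rpl36 turned to -0.16 without the block and was not called without replicate 4 (0.63, adjusted p = 0.146 from edgeR) or replicate 5 (0.60, adjusted p = 0.226). Rplp0 was not called without replicate 4 (0.28, adjusted p = 0.22 from edgeR) or without the block (0.42, adjusted p = 0.508). Neither was called with 1 sample per area and pool (0.50 and 0.41, adjusted p = 0.505 and 0.499 from edgeR).

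Mitochondrial members moved both ways in hypothalamus. Mrpl52 (log2FC 0.55, standard error 0.13, adjusted p = 0.000392 from edgeR) and Mrpl17 (0.54, standard error 0.11, adjusted p = 1.44e-05) were highest. Mrps24 (-0.67, standard error 0.18, adjusted p = 0.00176 from edgeR) and Mrps30 (-0.42, standard error 0.14, adjusted p = 0.0101) were lowest. Without the block Mrpl52, Mrps24 and Mrps30 were not called (adjusted p = 0.394, 0.234 and 0.274 from edgeR), and without replicate 4 Mrps30 was not (log2FC -0.27, adjusted p = 0.201). With 1 sample per area and pool Mrpl52 was called (0.51, adjusted p = 0.0588 from edgeR), and Mrpl17, Mrps24 and Mrps30 were not (0.36, -0.46 and -0.38, adjusted p = 0.114, 0.241 and 0.175).

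In the dentate gyrus, Rplp0 was the sole cytosolic member called (log2FC 0.87, standard error 0.31, adjusted p = 0.0318 from edgeR), and 3 mitochondrial members were higher, beside 13% of all transcripts higher and 12.3% lower. Rplp0 ranged from 411 to 883 CPM there and from 47.7 to 808 CPM in cortex. Its difference was 2.24 in replicate 4 and 0.37 to 0.41 in the other numbers, and the call was lost without replicate 4 (log2FC 0.38, adjusted p = 0.181 from edgeR) and without the block (0.68, adjusted p = 0.479). Mrpl36 reached 0.57 ± 0.19 (log2FC and standard error, edgeR adjusted p = 0.0255), not called without replicate 4 (adjusted p = 0.146), replicate 5 (adjusted p = 0.137) or the block (adjusted p = 0.718). Mrpl17 reached 0.53 ± 0.12 (log2FC and standard error, edgeR adjusted p = 0.000388). With 1 sample per area and pool, Mrpl36 and Mrpl17 were called at 0.59 and 0.43 (adjusted p = 0.0801 and 0.0824 from edgeR), and Rplp0 was not (0.69, adjusted p = 0.282), beside 8.75% of all transcripts higher and 9.66% lower.

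In the nucleus accumbens, the 5 cytosolic calls were all higher and all on small-subunit genes, Rps18, Rps19, Rps2, Rps21 and Rps28, beside a background of 13.2% higher and 11% lower. Rps18 reached 0.77 ± 0.21 (log2FC and standard error, edgeR adjusted p = 0.00434), not called without replicate 1 (0.36, adjusted p = 0.328) or the block (1.10, adjusted p = 0.226). Rps19, a gene mutated in Diamond-Blackfan anaemia, reached 0.76 ± 0.17 (log2FC and standard error, edgeR adjusted p = 0.000332). It was between 300 and 656 CPM in 8 accumbens libraries and between 96.8 and 571 CPM in cortex. In all, 22 of 24 cytosolic members had a log2FC above 0 there, with a median of 0.37, and the subunits were close at 0.35 for large and 0.45 for small. Of all transcripts, 8706 of 17008 were above 0 there, with a median of 0.01. The count of 5 was 2 without replicate 1, 3 without replicate 3 and 15 without replicate 4. With the Sham ILC libraries of replicates 1 and 3 left out, 4 cytosolic members were higher and none lower (background 13.6% and 11.8%). Of the mitochondrial members, 1 was then higher and none lower. Mrpl52 was the mitochondrial member called (0.48, standard error 0.15, adjusted p = 0.0147 from edgeR), not called without replicate 3 (adjusted p = 0.108), replicate 5 (adjusted p = 0.159) or the block (adjusted p = 0.534). Rps19 was the sole member called with 1 sample per area and pool (0.62, adjusted p = 0.0129 from edgeR), beside 7.43% of all transcripts higher and 8.35% lower, and Rps18 and Mrpl52 were not (0.60 and 0.50, adjusted p = 0.188 and 0.107).

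Class medians between areas changed sign between replicate numbers in Sham, except the mitochondrial median in brainstem. The brainstem cytosolic median relative to cortex was 0.35, 0.89, -0.28 and 0.32 in replicates 1, 3, 4 and 5, and that of the accumbens was 0.86, 0.85, -0.20 and 0.45. Replicate 4 was the exception in both areas. Mitochondrial medians in brainstem were all above 0, at 0.36, 0.55, 0.40 and 0.0032. They were 0.32, 0.50, 0.05 and -0.16 in hypothalamus, 0.42, 0.20, 0.03 and -0.09 in dentate gyrus and 0.60, 0.46, -0.23 and -0.08 in accumbens, above 0 in replicates 1 and 3 and below 0 in replicate 5. In FT, the mitochondrial medians of brainstem (0.07, 0.17, 0.20 and 0.20) and hypothalamus (0.26, 0.34, 0.0043 and 0.13) were all above 0, as were the cytosolic medians of hypothalamus (0.04, 0.66, 0.19 and 0.08) and accumbens (0.11, 0.63, 0.39 and 0.02). The brainstem cytosolic medians were -0.32, 0.18, 0.41 and -0.11, and the other FT sets also held both signs. Medians over all expressed transcripts for Sham brainstem were -0.09, 0.28, 0.13 and 0.04, highest in replicate 3, which holds the shallow ILC library. In that replicate they were 0.31 in Sham hypothalamus, 0.24 in dentate gyrus and 0.18 in accumbens. In FT hypothalamus they were 0.11 and 0.09 in replicates 4 and 5. Some class medians above 0 lay below these, among them 0.20 for mitochondrial members of Sham dentate gyrus and 0.0043 for those of FT hypothalamus. In replicate 5, the mitochondrial median of Sham brainstem was 0.0032 against 0.038 over all transcripts. The cytosolic median of FT hypothalamus was 0.0836 against 0.0852 in that replicate.

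FT libraries, which share no sample with the Sham fit, gave a second reading of the same areas. The study processed FT and Sham samples of 1 replicate in parallel, and same-numbered samples correlated (median 0.58 over 94 pairs). The 2 readings are therefore not independent. No fit with 1 sample per area and pool is given for FT. In FT brainstem, 3 cytosolic members were higher and 2 lower (background 25.2% and 25.5%), and 4 mitochondrial members were higher and none lower. In FT hypothalamus, 5 cytosolic members were higher and none lower, and 4 mitochondrial members were higher and 1 lower (background 22.7% and 22.0%). In FT dentate gyrus, 1 cytosolic member was higher and 6 lower, and 2 mitochondrial members were higher and 2 lower (background 11.4% and 13.1%). In FT accumbens, 9 cytosolic members were higher, 6 of the large and 3 of the small subunit, and none lower, and 4 mitochondrial members were higher and 3 lower (background 15.9% and 20.1%). Whether areas differ more in Sham than in FT was not tested.

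**Figure D3:**
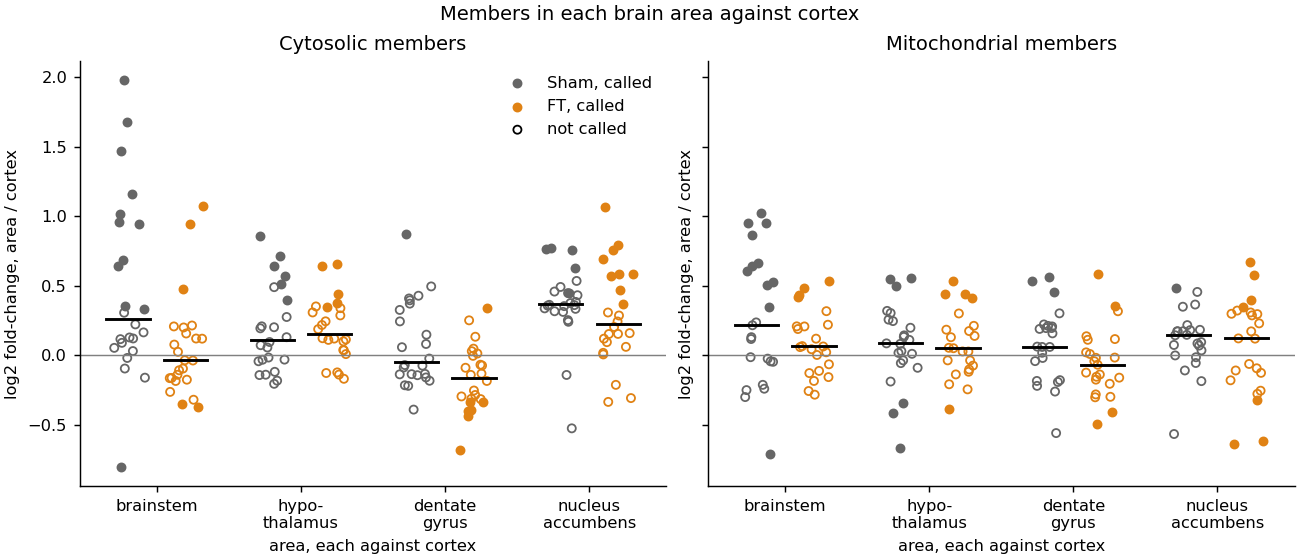
Log2FC of each member in 4 areas against cortex for cytosolic (left) and mitochondrial (right) members, fitted separately in Sham (grey) and FT (orange) libraries. Filled points are called, open points are not, and bars mark medians, with Sham brainstem cytosolic members spread from -0.80 to 1.98.

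Some members were called in both sets of libraries, and none in opposite directions. Among 16351 transcripts tested in both, those higher in Sham were also higher in FT for 3555 of 4907 in brainstem (72.4%), 2802 of 3904 in hypothalamus (71.8%), 1161 of 2174 in dentate gyrus (53.4%) and 1192 of 2186 in accumbens (54.5%). Opposite calls made up 0.104%, 0.0306%, 0.0489% and 0.813% of all transcripts. In brainstem they were Rpl18, Rpl36 and Rps10 (3 of 11 higher in Sham, 3 of 3 in FT) and Mrpl12, Mrpl17, Mrpl34 and Mrps7 (4 of 10 and 4 of 4), so that the shares of Sham calls lay below that of all transcripts in both classes. Rpl18, of the large subunit, had a log2FC of 0.95 in Sham and 0.94 in FT (adjusted p = 2.11e-05 and 8.28e-06 from edgeR), and Mrpl17 of 0.66 and 0.53 (adjusted p = 2.06e-08 and 3.93e-07). In hypothalamus they were Rpl18, Rpl36, Rplp0 and Rps28 (4 of 6 and 4 of 5) and Mrpl17 and Mrpl52 (2 of 3 and 2 of 4). In dentate gyrus they were Rplp0 and Mrpl17, and in the accumbens Rps2, Rps19 and Mrpl52. Rpl18, Mrpl12 and Rps28 are among those named here after their values were seen.

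Mrpl17, a large-subunit protein, was even across libraries. In Sham it ranged from 91.1 to 230 CPM in brainstem (median 152), from 80.1 to 189 CPM in hypothalamus (median 142), from 106 to 185 CPM in dentate gyrus (median 141) and from 61.1 to 187 CPM in cortex (median 99.4). These ranges overlap, yet it exceeded cortex in all 4 replicate numbers of both treatments in brainstem, hypothalamus and dentate gyrus. Over those 8 values, 6 of 23 mitochondrial members (26.1%) and 3 of 24 cytosolic members (12.5%) were always higher in brainstem, where the share among 18063 expressed transcripts was 16.6%. In hypothalamus the shares were 17.4% and 0% against 14.0%, in dentate gyrus 4.35% and 4.17% against 8.61%, and in accumbens 8.7% and 4.17% against 7.94%. No member was lower in all 8 values in any area, where 11.9%, 9.56%, 5.48% and 5.7% of all transcripts were in brainstem, hypothalamus, dentate gyrus and accumbens.

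Cell type markers moved between the same areas. The 3 oligodendrocyte markers, Ermn, Opalin and Olig2, were called higher in Sham brainstem, hypothalamus and accumbens, with a median log2FC of 1.20, 1.09 and 1.42, and none was called in dentate gyrus. In brainstem the blood markers Hbb and Hbb-b1 (median 1.10) and the choroid plexus marker Ttr (4.91, with LC at 28300 CPM) were also higher, the microglial marker Cx3cr1 (-0.96) was lower, the microglial marker C1qa (0.23) was not called, and neither astrocyte marker was called. The neuronal markers Slc17a6 (3.42) and Tubb3 (1.01) were higher there. In hypothalamus Ttr (1.22), Hbb (0.56), Hbb-b1 (0.54), Slc17a6 (3.32) and Gad2 (1.35) were higher, in dentate gyrus Ttr (6.70), and in accumbens Gad2 (1.85) and C1qa (0.47). In FT dentate gyrus Tubb3 (-0.83) and Ermn (-0.77) were lower and Ttr (3.53) was higher. In FT accumbens Slc17a6 (-1.35) was lower, and Gad2 (1.735), Opalin (0.88), C1qa (0.61) and Apoe (0.46) were higher. Fewer cells of a type and less RNA per cell cannot be told apart in these bulk samples, and the part of cell composition in the ribosomal differences was not tested.

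Other genes of translation had their own counts in brainstem. Of 16 cytosolic translation factors, 3 were higher (Eif4ebp2, Eif5a and Eef2) and 9 lower in Sham brainstem, with a median log2FC of -0.39, where 29.7% of all transcripts were higher and 26.3% lower. In FT brainstem none was higher and 4 were lower (Eif1ax, Eif2a, EIF3F and Eif4a1, median -0.16), where 25.2% and 25.5% of all transcripts were. Of 14 ribosome biogenesis genes, 3 were higher and 6 lower in Sham (median -0.16) and 4 higher and 6 lower in FT (median -0.16). Of 8 genes of mitochondrial gene expression, Fastk was higher and TFB2M lower in Sham (median 0.01), and in FT Pnpt1 and Fastk were higher and none was lower (median 0.15). In Sham hypothalamus, 1 translation factor was higher and 3 were lower, and no gene of either other list was called, where 23.5% of all transcripts were higher and 20.3% lower. In FT hypothalamus, no translation factor was higher and 5 were lower, 2 biogenesis genes were higher and 2 lower, and TFB2M was lower (background 22.7% and 22.0%). These lists were drawn from the same source as the members, and whether they differ from the members was not tested.

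FT against Sham, the contrast that chose the members, is described region by region, with replicate number as a block. Over 25 regions, 9 of 600 values of cytosolic members were called higher and 15 lower in FT, and 34 of 575 values of mitochondrial members higher and 3 lower. Over all transcripts, 0.946% were called higher and 0.825% lower. Mitochondrial members had a median log2FC above 0 in 25 of 25 regions, from 0.20 in prelimbic cortex (PLC) to 0.85 in Arc. Cytosolic medians were below 0 in 19 regions and above 0 in 6, from -0.72 in mPoA to 0.39 in ILC.

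In these edgeR fits the calls fell in 4 regions. In Arc, 18 mitochondrial members were higher and 2 lower, and 1 cytosolic member was higher and 6 lower, beside 13.7% and 10.8% of all transcripts. In mPoA, 9 mitochondrial members were higher and 1 lower, and 2 cytosolic members were higher and 8 lower (background 4.85% and 4.74%). In the raphe, 5 mitochondrial members were higher and none lower, and 2 cytosolic members were higher and 1 lower (background 3.08% and 3.51%). In CGC, 2 mitochondrial and 4 cytosolic members were higher and none lower (background 0.389% and 0.0762%). In Arc and mPoA the paired libraries are those of replicates 4 and 5. These fits therefore rest on 2 pairs each, where 21 regions had 4 pairs. DESeq2 called more members of both classes, as given in the last section. Markers of regions and cell types were called in the same contrasts. In Arc, Tcf7l2, Hcrt, Oxt, Avp and the choroid plexus marker Ttr (log2FC 1.95) were higher in FT, as was the oligodendrocyte marker Olig2. Th, Slc6a3, Tubb3, Gad2, Ermn, Gja1 and Cx3cr1 were lower there. In the raphe, Tubb3, Gad2 and Th were lower and Neurod1 higher, and in mPoA Hcrt was higher. The median over the 3 neuronal markers was -0.79 in Arc, -0.84 in the raphe, -0.66 in mPoA and -0.07 in CGC. Their part in the ribosomal calls was not tested. Without replicate 4 the calls over the 23 regions that could still be fitted were 4 cytosolic and 1 mitochondrial, without replicate 5 they were 3 and 1, and without replicate 1 they were 43 and 54 over 25 regions. Without the block there were none.

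Replicates 4 and 5 stood apart when each FT library was set against the Sham library of its own number. All regions of 1 number come from the same FT pool and the same Sham pool. Counts of regions, here and in the other comparisons of FT with Sham, are therefore not counts of replicates. The median member of the mitochondrial class was higher in FT in 25 of 25 regions in replicate 4 and in replicate 5, with a median log2 ratio over regions of 0.62 and 0.78. In replicates 1 and 3 it was higher in 11 of 22 and 18 of 22 regions, with medians of 0.01 and 0.22. The cytosolic class was lower in FT in 22 of 25 regions in replicates 4 and 5 (medians -0.62 and -0.35), in 15 of 22 in replicate 1 (-0.17) and in 6 of 22 in replicate 3 (0.24). Mitochondrial medians exceeded cytosolic medians in all 25 regions in replicates 4 and 5, in 17 of 22 in replicate 1 and in 11 of 22 in replicate 3. Median ratios over all expressed transcripts were 0 in replicates 1, 3 and 4 and -0.01 in replicate 5.

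**Figure D4:**
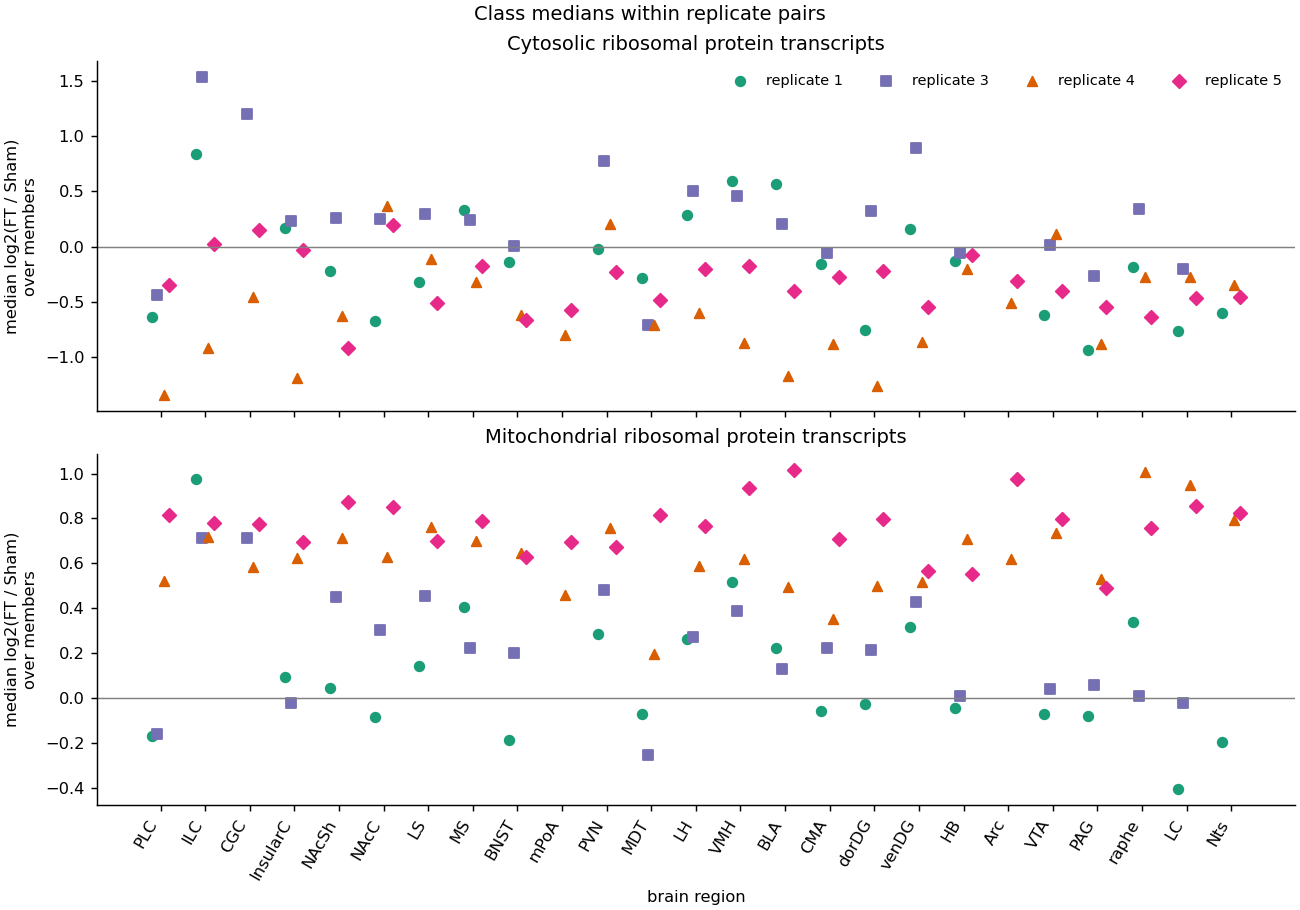
Median log2 ratio of FT to Sham over cytosolic (top) and mitochondrial (bottom) members in each region and replicate pair. Mitochondrial medians of replicates 4 and 5 lie between 0.20 and 1.02, and those of replicates 1 and 3 scatter on both sides of 0.

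Regions differed in whether all pairs had the same sign. Among the 21 regions with 4 usable pairs, cytosolic medians were below 0 in every pair in 6, namely PLC, the mediodorsal thalamus (MDT), CMA of the amygdala, habenula, periaqueductal gray (PAG) and locus coeruleus. In none were they above 0 in every pair. Mitochondrial medians were above 0 in every pair in 10, among them the raphe, ILC, the lateral and medial septum and the accumbens shell, and below 0 in every pair in none. The highest cytosolic ratios of replicates 1 and 3, 0.84 and 1.54, came from ILC, where both Sham libraries stood apart, that of replicate 1 by the share of its 50 most abundant transcripts and that of replicate 3 by its depth. The median ratio over all transcripts was 0 in the first pair and 0.58 in the second. The highest mitochondrial ratios of these numbers, 0.98 and 0.71, came from the same pairs. Without these pairs the calls over 25 regions were 29 cytosolic and 41 mitochondrial.

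Members of the mitochondrial class did not move as a block. Mrpl51 had the highest median log2FC over regions, 1.09, followed by Mrps7 (0.69), Mrpl27 (0.65) and Mrpl55 (0.58), whereas Mrpl2 (-0.26), Mrpl52 (-0.10), Mrpl50 (0.01) and Mrpl34 (0.18) were lowest. In the raphe, Mrpl51 was at 70.7, 25.1, 136 and 191 CPM in Sham replicates 1, 3, 4 and 5 and at 65.4, 21.2, 1339 and 839 CPM in FT. FT was thus far above Sham in replicates 4 and 5 and slightly below it in replicates 1 and 3, and the log2FC of 1.31 (standard error 0.55) was not called. Mrps30, at 30.6, 29.9, 15.1 and 25.8 CPM in Sham raphe and 50.8, 37.6, 60.3 and 48.0 CPM in FT raphe, had every FT library above every Sham library (log2FC 0.99, standard error 0.25). Mrps30 is named Mrps but sits in the large subunit. Mrps7, of the small subunit, had 34.7 and 44.6 CPM in the Arc Sham libraries of replicates 4 and 5. The FT libraries had 98.9 and 159 CPM in those numbers, above Sham in each pair (log2FC 1.65, standard error 0.16). FT replicates 1 and 3, at 83.6 and 49.5 CPM, have no Sham library of their number in Arc.

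Cytosolic members split in direction. Rplp1 (0.80), Rps2 (0.71), Rps10 (0.42) and Rpl13 (0.41) had the highest median log2FC over regions, and Rps15al4 (-0.66), Rpl37 (-0.50), Rpl23a (-0.44) and Rpl32 (-0.44) the lowest. Rpl37, of the large subunit, was above 0 in none of 25 regions in replicates 4 and 5, with median ratios of -1.12 and -0.58, in 3 of 22 regions in replicate 1 and in 15 of 22 in replicate 3. Rps14, of the small subunit, was above 0 in 22 of 25 regions in replicate 4 and in 25 of 25 in replicate 5, but in 8 of 22 in replicate 1 and 11 of 22 in replicate 3. In the raphe Rps14 was at 839, 811, 382 and 378 CPM in Sham replicates 1, 3, 4 and 5 and at 1222, 1392, 624 and 607 CPM in FT. FT exceeded Sham in each pair although the groups overlapped (log2FC 0.67, standard error 0.19).

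A few members had opposite signs in replicates 4 and 5. Rplp1 had a median ratio of 2.30 in replicate 4 and -0.54 in replicate 5, and Rpl14 of 0.75 and -1.39. In the accumbens core, Rplp1 was at 101, 1883, 9.60 and 99.3 CPM in Sham replicates 1, 3, 4 and 5 and at 542, 4612, 126 and 93.4 CPM in FT, so that FT was higher in replicates 1, 3 and 4. Rpl18, by contrast, had ratios of -1.47 and -0.99 in replicates 4 and 5 and of 0.43 and 0.63 in replicates 1 and 3. In mPoA, Rpl18 was at 118 and 110 CPM in Sham replicates 4 and 5 and at 30.0 and 34.2 CPM in FT. The log2FC was -1.83 (standard error 0.31). Sham replicates 1 and 3, at 109 and 453 CPM, have no FT library of their number there.

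**Figure D5:**
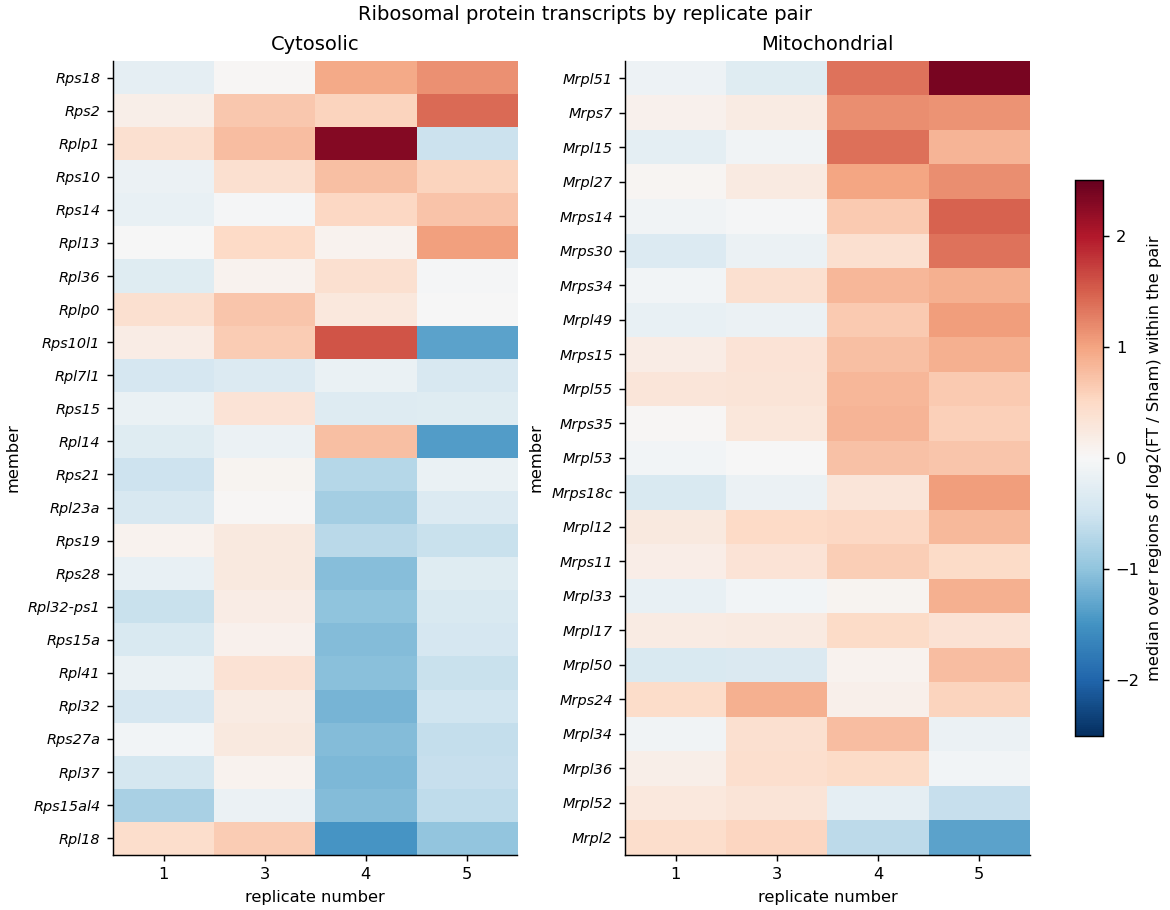
Median over regions of the log2 ratio of FT to Sham for each cytosolic (left) and mitochondrial (right) member in each replicate pair, with red above 0 and blue below. Mrpl51 reaches 1.36 and 2.38 in replicates 4 and 5 against -0.13 and -0.29 in replicates 1 and 3.

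Related lists and cell type markers also differed between replicate pairs. Genes of mitochondrial gene expression had median log2 ratios of -0.07, -0.04, 0.32 and 0.72 in replicates 1, 3, 4 and 5, above 0 in 24 of 25 regions in replicate 4 and 25 of 25 in replicate 5. Ribosome biogenesis genes had 0.06, 0.20, 0.32 and 0.46, and cytosolic translation factors -0.02, 0.05, 0.01 and 0.35. The 3 neuronal markers, Tubb3, Gad2 and Slc17a6, had medians of -0.14, -0.22, -0.49 and -0.57, above 0 in 2 of 25 regions in replicate 4 and in none in replicate 5. Their summed level had medians of 315 and 494 CPM in Sham and 220 and 244 CPM in FT in replicates 4 and 5. Oligodendrocyte markers had -0.06, -0.24, -0.36 and -0.28, and the astrocyte markers Gja1 and Apoe 0.00, 0.16, -0.36 and 0.07. The choroid plexus marker Ttr had -0.07, -0.34, -1.11 and -0.58, above 0 in 9 of 25 regions in replicates 4 and 5. The blood markers Hbb and Hbb-b1 had -0.46, -0.33, -0.08 and 0.20. The microglial marker C1qa had median ratios of 0.41, 0.39, 0.40 and 0.32, above 0 in 19 of 22, 18 of 22, 21 of 25 and 20 of 25 regions. Cx3cr1, another microglial marker, had 0.07, 0.20, -0.76 and -0.78, above 0 in 12 of 22, 15 of 22, 2 of 25 and 1 of 25 regions, so the pair moved in opposite directions in replicates 4 and 5. Both were chosen for this description after their values were seen. The summed astrocyte level was 13400 CPM in Sham and 19800 CPM in FT in replicate 3, against medians of 486 to 1150 CPM in the other numbers. The part of these shifts in the ribosomal ratios was not tested.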

How the data were processed

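RNA-seq reads were aligned with STAR to rn5 and counted per Ensembl transcript with HTSeq, per the labels and the study's methods (versions not given in the sources used here), and the authors deposited whole-number counts, 1 table per library. Ambiguous reads were a median of 5.52% of a library, and no multiply placed read is listed. Reads on no feature made up 23.7%, 38.18%, 45.99% and 45.02% in replicates 1, 3, 4 and 5. Their part in the ribosomal values was not tested. From these counts, edgeR 4.0.16 in R 4.3.3 was run here with TMM, filterByExpr (minimum count 10, total 15), quasi-likelihood tests and Benjamini-Hochberg adjustment over all transcripts of a contrast. The block was the replicate number, since the study's methods treat replicate numbers as batches. Over 94 pairs the deviations of same-numbered samples correlated with a median of 0.58 (lowest -0.0829 in Arc, above 0.1 in 91). In replicates 4 and 5 the values were -0.0829 and 0.0383 in Arc and 0.168 and -0.0692 in mPoA. These regions had the most calls of FT against Sham, and their pairs were among those that correlated least. Log2 CPM used a prior count of 2. Libraries under 100000 counts were left out. Alternatives were DESeq2 1.42.0, no block, other size factors, no low-count filter, names in any letter case, each replicate left out, other library choices, LC or ILC libraries left out, and counts summed per area and replicate number. Fits were tested on simulated data.

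Members and lists were chosen with earlier results of these data known. Named members were, in each class, the 3 of highest mean CPM, the 4 highest and 4 lowest in median FT log2FC, and up to 2 highest and 2 lowest called per area. Replicates are pools of several animals, so p-values of FT against Sham measure the spread between pools. In the area fits, regions of 1 pool count as separate samples (19 brainstem and 15 cortex libraries from 4 pools), so those p-values are too small. One cell type marker, and the summary of its list, are not reported here.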

Additional observations from a re-analysis of the deposited data

Results flagged for a closer look

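In 45 groups of 4 libraries, each tested for both class sums (90 tests), 5 sums stood far above the other 3 libraries by Dixon's 95% criterion, which chance gives in about 1 group in 20. A count of 5 in 90 tests is close to that rate. The cytosolic sum was 12200 CPM in Sham mPoA replicate 3 (the others 4877 to 5657) and 13260 CPM in Sham lateral hypothalamus (LH) replicate 3 (4870 to 6099). The mitochondrial sum was 2109 CPM in Sham ventral dentate gyrus replicate 1 (1367 to 1470), 2832 CPM in FT LH replicate 5 (2053 to 2154) and 3550 CPM in FT PAG replicate 5 (1901 to 2171). Each group holds libraries of different replicate numbers, and replicate 3 has the highest median cytosolic sum in Sham, 16610 CPM, and the replicate 3 values above lie in that direction.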

How the results depend on the processing

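Over 20 class counts and medians and 15 other settings, 1 of them for areas and 1 for brainstem alone, 245 of 280 values stayed within 1.5 times the main count or, for medians, within 1 SD of the medians by replicate number, a wide margin. Of 10 class medians 5 took the other sign under some setting, namely cytosolic FT against Sham (0.0068 without the replicate block), hypothalamus (to -0.05) and dentate gyrus (to 0.22), and mitochondrial hypothalamus (-0.03 with 1 sample per area and pool, -0.0049 without the Sham ILC libraries of replicates 1 and 3) and accumbens (-0.09 without replicate 1). Calls of FT against Sham moved most. The 24 cytosolic and 37 mitochondrial calls became 86 and 103 with DESeq2, 100 and 114 with no low-count filter, and 0 and 0 without the replicate block, and ranged from 3 to 43 and from 1 to 54 with a replicate left out. Without the replicate block, the cytosolic calls between areas in Sham were 5 in brainstem, 1 in hypothalamus, 0 in dentate gyrus and 1 in accumbens, and the mitochondrial calls 6, 1, 1 and 0. Names in any letter case gave 9 cytosolic calls in accumbens, and keeping all CGC samples gave 9 cytosolic and 2 mitochondrial. With a replicate left out, cytosolic calls ranged from 2 to 6 in hypothalamus, 1 to 2 in dentate gyrus and 2 to 15 in accumbens, and mitochondrial calls in accumbens from 0 to 5. With 1 sample per area and pool, cytosolic calls were 0 in hypothalamus, 0 in dentate gyrus and 1 in accumbens, and mitochondrial calls 2 in hypothalamus and 0 in accumbens. Without those ILC libraries, 1 cytosolic member was higher and 1 lower in dentate gyrus (background 14.1% and 12.8%). Of the mitochondrial members, 3 were higher and 1 lower there. Of 240 values for 18 named results, 207 kept their call, 32 lost it and 1 reversed, Rpl36 in hypothalamus without the replicate block (log2FC -0.16, adjusted p = 0.952). The causes were not tested. A higher library minimum, which also left out the shallow ILC library, brainstem without LC, which moved no class value past these margins, the sums per area and pool, and the fits without ILC libraries were added after the data were seen. Arc and mPoA could not be fitted without replicate 4 or 5.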
